A study of Mus musculus with 6 samples.

Results

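The genes described here are the mouse solute carriers that move ions, transmitters and amino acids across membranes, as measured in the star pyramid neurons of visual cortex layer 4, which are excitatory cells. Members were chosen by gene symbol alone, from solute carrier families 1, 4, 6, 7, 8, 9, 12, 24, 30, 38 and 39. The symbol pattern matched 101 of the 14859 genes with a symbol of their own, and 97 of them encode carriers. The other 4, Slc4a1ap, Slc7a6os, Slc9a3r1 and Slc9a3r2, share part of a name and are not transporters. Slc1a2, the main astrocytic glutamate carrier, and Slc4a5, a bicarbonate cotransporter, each had a probe cluster shared with a second symbol and are not analysed here.

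All samples came from mice at postnatal day 14 whose vision through one eye had been silenced by tetrodotoxin, a sodium channel blocker, injected at postnatal day 12 to 13 and again at day 13 to 14. Neurons carrying the fluorescent label m-Citrin were picked by hand from dissociated tissue, 3 samples from the deprived and 3 from the non-deprived hemispheres. The non-deprived group therefore comes from treated animals too, and no untreated animals are among the samples. The strain and the driver of the fluorescent label are not named. Nor are separate animals named for the samples, so a p-value speaks only to the spread between samples, some of it possibly technical. Sample names run 1l to 3l in the non-deprived and 1r to 3r in the deprived group. Whether samples with the same number came from one mouse is not stated. If the letters mark the side of the brain, side and deprivation cannot be told apart.

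Solute carriers set the ion gradients and amino acid pools that synaptic transmission runs on. Family 1 clears glutamate, family 6 takes up GABA, glycine, monoamines and osmolytes, and family 12 moves chloride, whose gradient decides whether GABA inhibits or excites a neuron. Families 8 and 24 expel calcium in exchange for sodium, families 4 and 9 set intracellular pH, families 30 and 39 carry zinc out of and into the cytosol, and families 7 and 38 exchange amino acids, among them the glutamine from which neurons make transmitter. In the cortex these genes are expressed unevenly between neurons and glia, and the neuronal chloride exporter rises during the first postnatal weeks.

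Expression was read from 6 exon arrays, 1 per sample, as a log2 value per transcript cluster (a group of probes for one gene). Probe clusters differ in how brightly they hybridise, so levels were compared between arrays for one gene and not between genes. A pair of arrays, non-deprived 2 and 3, differed from the other 4. Fewer of their genes exceeded 7 on the log2 scale (2769 and 2900, against 3727 to 3960), as did fewer members (18 and 16, against 26 to 30). The 5 layer 4 markers were between 5.365 and 10.66 over the 6 arrays, with Rorb at 6.83 to 8.57. The 6 measured excitatory markers were between 4.42 and 10.35, with Slc17a7 at 8.92 to 10.35. Glial and vascular markers were between 2.85 and 6.87 (33 genes of 5 lists). The 8 interneuron markers were between 3.13 and 11.59, with Vip at 3.13 to 3.58 and Sst at 10.08 to 11.59. Sst lay above and Vip below the median of all genes on every array (5.37 to 5.73). A level that marks background is not known.

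No member differed between the groups past the threshold. At an adjusted p under 0.05, limma called 0 of 101 members, as it called 0% of all 14859 genes. No member had an adjusted p below 0.856. At an unadjusted p under 0.05 there were 3 members, against 5.22% of all genes. Of these, 1 was higher in the deprived arrays, Slc7a1 (3.81% of all genes), and 2 were lower, Slc9a4 and Slc6a14 (1.41% of all genes). The groups were fully separated in 9 members, 3 higher and 6 lower in the deprived arrays, where this held for 10.3% of all genes (6.3% higher and 4.03% lower). Over both directions the member shares, 2.97% and 8.91%, were below those of all genes. For lower members alone the shares were somewhat above, on counts of only 2 and 6. The difference, always a log2 value of the deprived mean less the non-deprived mean, was above 0 in 65 of 101 members (64.4%) and in 56.3% of all genes, with a median of 0.12 over the members and 0.05 over all genes. After quantile normalization of the arrays 53 of 101 members were higher (52.5%), against 44.98% of all genes, and after median centring the same count of 53, against 44.5%.

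The precision was limited by the number of arrays. The median standard error of a member's difference was 0.277, and the 95% interval reached beyond a log2 difference of 1 in 50 of 101 members. In 16 members it lay wholly within 0.5 of 0.

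**Figure D1:**
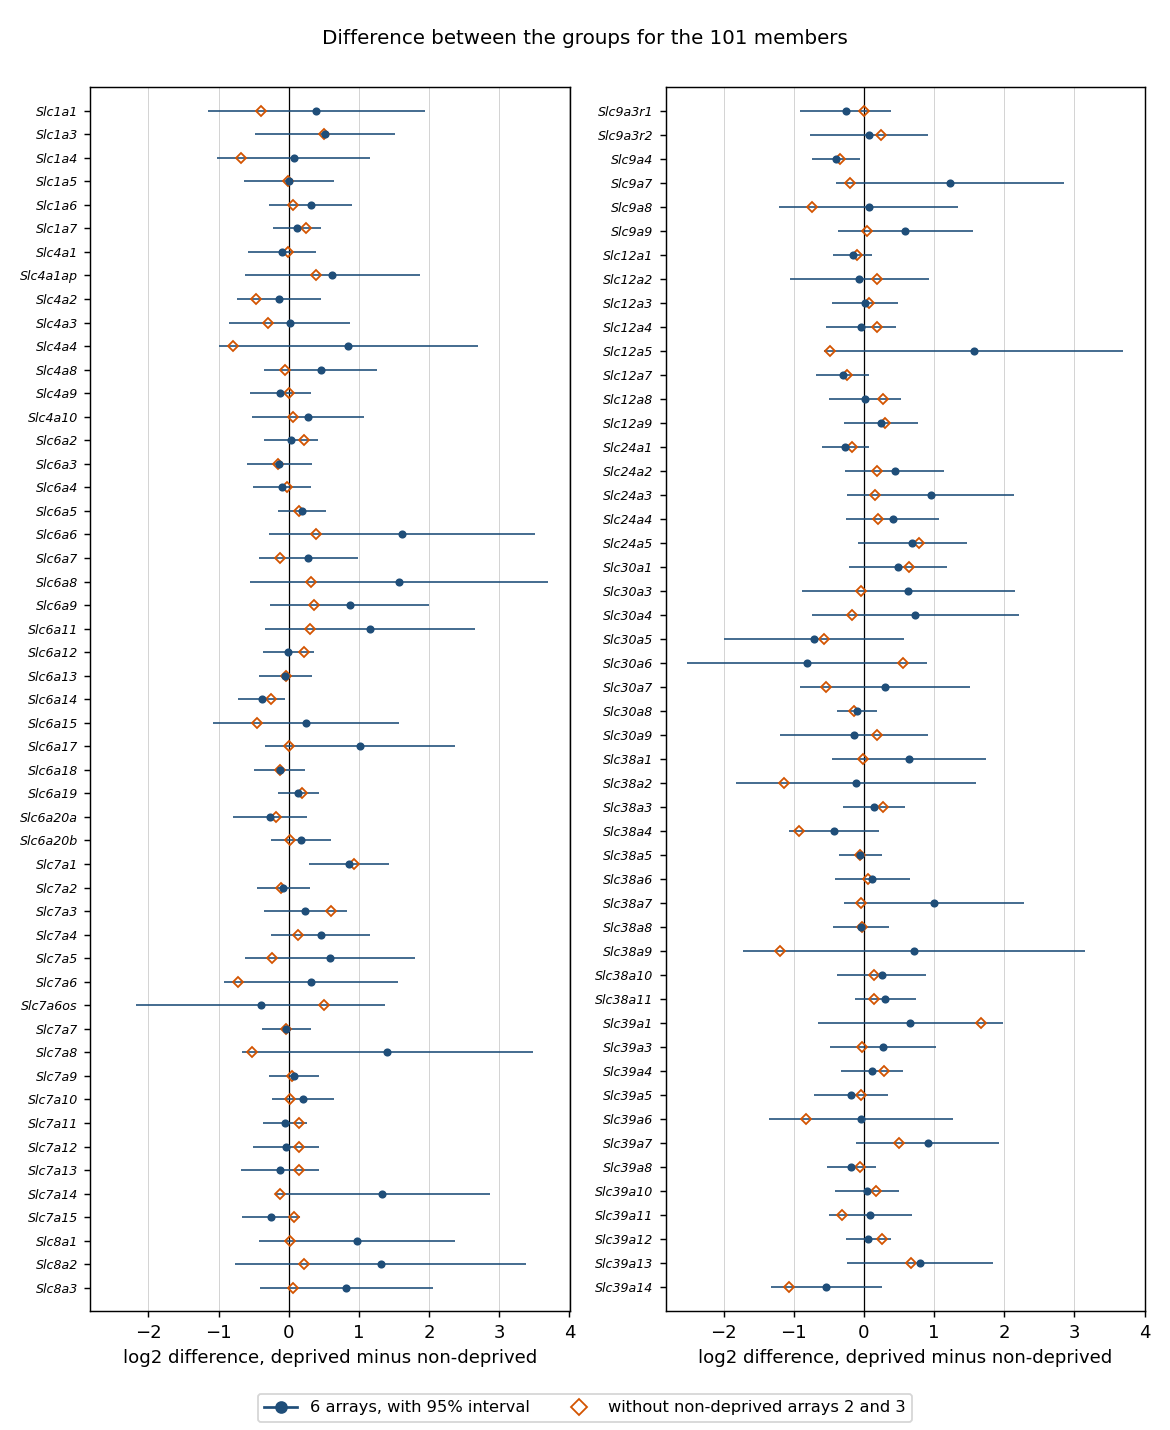
Log2 difference between the deprived and the non-deprived arrays for each of the 101 members, with its 95% interval from limma (filled points, 3 arrays per group), and the difference without non-deprived arrays 2 and 3 (open diamonds). The intervals of 3 members, Slc7a1, Slc9a4 and Slc6a14, leave out 0.

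In 28 of 101 members (27.7%) non-deprived arrays 2 and 3 were the 2 lowest of the 6, against 16.7% of all genes; most members did not share this order. Among members whose mean level was at or above the median of all genes the count was 23 of 55 (41.8%), against 26.1% of genes of that brightness. Among dimmer members it was 4 of 28 and 1 of 18, against 10.4% and 4.31% of genes in the same classes. Leaving out both arrays leaves non-deprived array 1 alone in its group. Against it, 54 of 101 members were higher in the deprived arrays, and the median difference over the members was 0.015, beside 0.0107 over all genes. The members at or above the median level moved from a median of 0.45 to 0.00733. All genes of that class moved in the same way, from 0.227 to 0.00667. For many of the members below, the difference is therefore also given without the 2 arrays. Both were singled out for low values in these same data. Leaving them out therefore tends to lower a difference and is no independent check. Of the 8 interneuron markers, only Gad1 and Gad2, which make GABA, had the same arrays as their 2 lowest. Slc32a1, Pvalb, Sst, Vip, Npy and Lhx6 did not. Gad2 was at 8.99, 5.98 and 6.34 on non-deprived arrays 1 to 3 and at 8.87, 7.81 and 9.13 on deprived arrays 1 to 3. All 8 interneuron markers, 4 of them with a difference above 0, summed to a log2 level of 11.38 to 12.08 in the non-deprived and 11.01 to 12.21 in the deprived arrays. The 6 measured excitatory markers all had a difference above 0, from 0.066 (Nrgn) to 1.31 (Neurod6), against 56.3% of all genes. Of these markers 0 passed the threshold. They summed to 11.22 to 11.33 in the non-deprived and 11.57 to 11.98 in the deprived arrays. Slc17a7, the vesicular glutamate transporter, was at 9.44, 8.92 and 9.04 on non-deprived arrays 1 to 3 and at 9.92, 10.20 and 10.35 on deprived arrays 1 to 3. It was higher in the deprived arrays without overlap (adjusted p = 0.856 in limma), as were 6.3% of all genes. The part of either cell type in these differences was not tested, and in pooled cells like these a lower share of one cell type and less RNA per cell cannot be told apart.

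**Figure D2:**
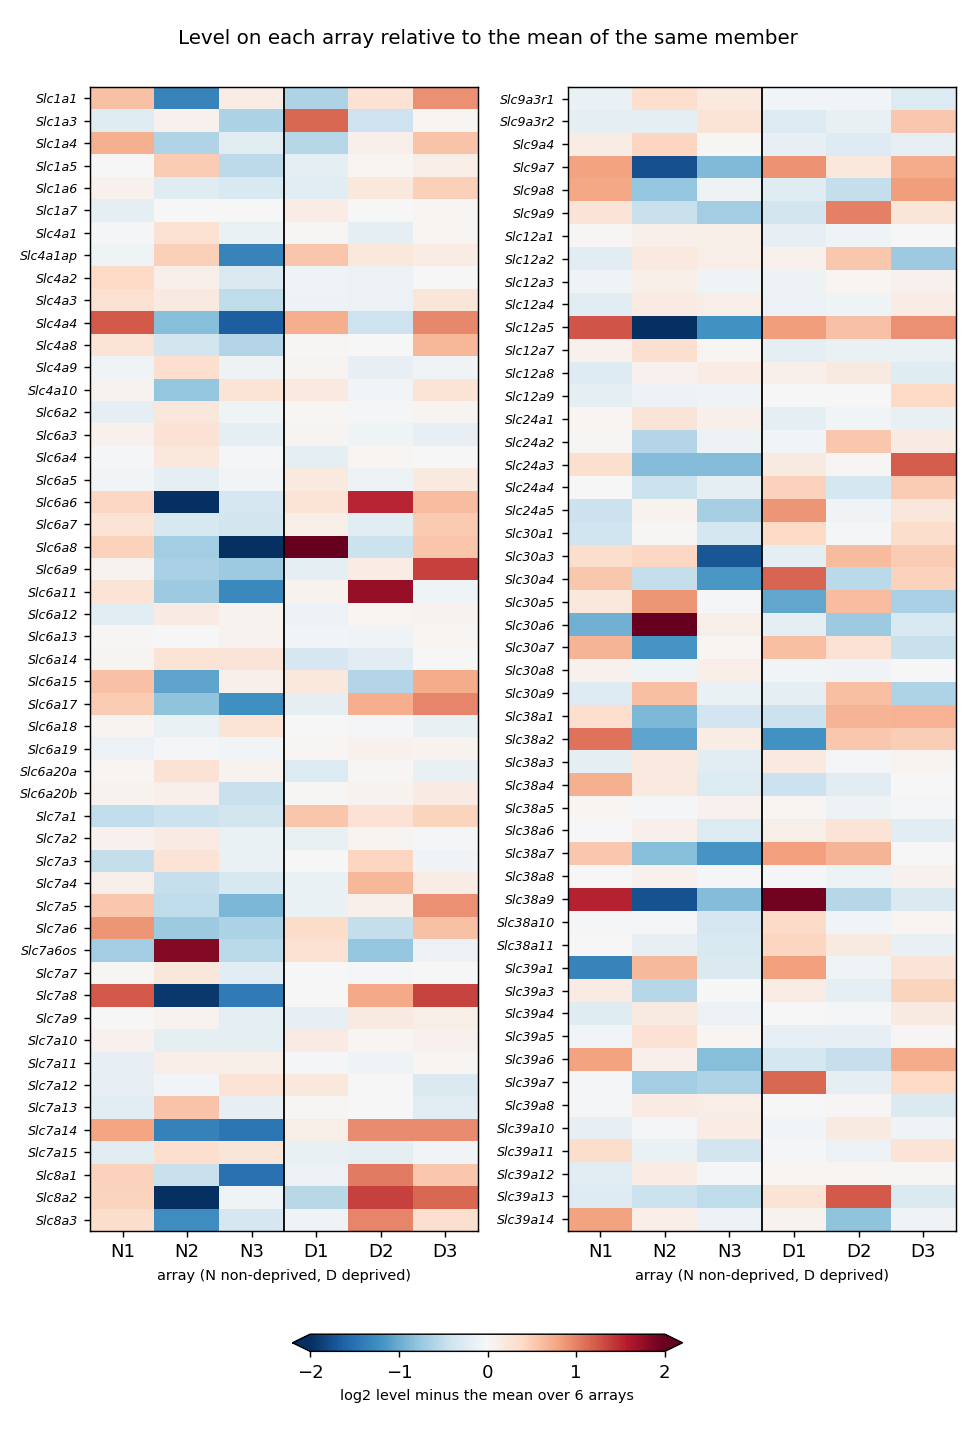
Level of each of the 101 members on each array, as the log2 value minus the mean of that member over the 6 arrays, in colours that saturate at 2. Columns N2 and N3 hold dark blue cells, among them Slc12a5, Slc6a6, Slc8a2 and Slc7a8 on N2 and Slc6a8 and Slc4a4 on N3.

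**Figure D3:**
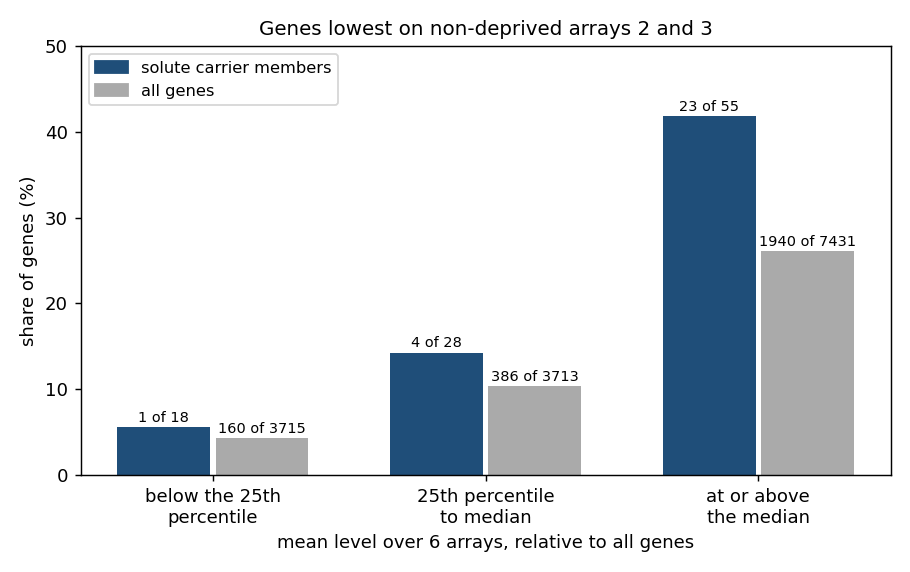
Share of genes for which non-deprived arrays 2 and 3 were the lowest of the 6, for the members (blue) and for all genes (grey), in 3 classes of mean level. The share was 41.8% of 55 members at or above the median and 26.1% of all genes of that class, and it was smaller in both dimmer classes.

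Glutamate carriers of family 1 were measured at 6 members, all 6 with a difference above 0 and 0 past the threshold (median 0.21). Slc1a1, the neuronal glutamate and cysteine transporter EAAT3 (transcript cluster 6869013), was at 8.39, 6.46 and 7.95 on non-deprived arrays 1 to 3 and at 7.18, 8.09 and 8.71 on deprived arrays 1 to 3. The groups overlapped, with the lowest value on non-deprived array 2. Its difference of 0.39 had a 95% interval of -1.15 to 1.94 and turned to -0.39 without non-deprived arrays 2 and 3. Slc1a3, the astrocytic transporter GLAST, was at 4.65, 4.97 and 4.26 on non-deprived arrays 1 to 3 and at 6.04, 4.47 and 4.93 on deprived arrays 1 to 3. Deprived array 1 alone stood high. Of 8 astrocyte markers, Aldh1l1, Aqp4, Aldoc and Gja1 also had their highest value on that array, Gfap and S100b had their lowest there, and Gjb6 and Fgfr3 had neither. The log2 of the summed level of all 8 was 8.86 on that array and 8.11 to 8.35 on the other 5, and its part in the Slc1a3 difference of 0.52 ± 0.42 (SE) was not tested. Slc1a4, the neutral amino acid exchanger ASCT1, spanned 5.56 to 6.88 over the 6 arrays and differed by 0.071. The related ASCT2, Slc1a5, differed by 0.0047. Slc1a6, the EAAT4 of Purkinje cells, and Slc1a7, the retinal EAAT5, differed by 0.31 and 0.12.

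Family 6, the sodium- and chloride-coupled uptake carriers, was measured at 18 members, 11 with a difference above 0, 7 below and 0 past the threshold (median 0.16). Slc6a11, the GABA transporter GAT3 known mainly from astrocytes, was at 6.64, 5.64 and 5.08 on non-deprived arrays 1 to 3 and at 6.44, 8.11 and 6.28 on deprived arrays 1 to 3. Deprived array 2 was the high array and non-deprived array 3 the low one, while the astrocyte markers summed to their lowest level, 8.11, on deprived array 2. The difference was 1.16 ± 0.62 (SE), with an interval of -0.33 to 2.65, and 0.31 without non-deprived arrays 2 and 3. Other GABA and betaine carriers lay in narrow bands: Slc6a13 (GAT2) kept within 5.31 to 5.44 on all 6 arrays and Slc6a12 (BGT1) within 4.22 to 4.601. Slc6a9, the glycine transporter GlyT1, was at 6.21, 5.49 and 5.404 on the non-deprived and 5.93, 6.28 and 7.49 on the deprived arrays. Its difference of 0.87 came with overlapping groups and was 0.36 without the 2 arrays. GlyT2, Slc6a5, a marker of glycinergic neurons of the hindbrain and spinal cord, differed by 0.19.

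The plasma membrane transporters of monoamines, which define neurons outside the cortex, varied little between arrays. The noradrenaline transporter Slc6a2 was within 4.66 to 5.09, the dopamine transporter Slc6a3 within 5.19 to 5.66 and the serotonin transporter Slc6a4 within 5.17 to 5.55. Their differences were 0.032, -0.13 and -0.094, and the widest of the 3 intervals, that of Slc6a3, was -0.598 to 0.33. Slc6a4 is known to be expressed for a time after birth in thalamic neurons that project to layer 4, not in the layer 4 cells themselves.

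Slc6a17, the vesicular neutral amino acid transporter NTT4 of glutamatergic neurons (transcript cluster 6908031), was at 9.03, 7.72 and 7.295 on non-deprived arrays 1 to 3 and at 8.35, 9.26 and 9.51 on deprived arrays 1 to 3. Non-deprived array 1 lay among the deprived values and arrays 2 and 3 lay below all of them. The difference was 1.02 ± 0.57 (SE, interval -0.33 to 2.38), and 0.0037 when those 2 arrays were left out. Slc6a6, the taurine transporter, was at 8.61, 5.71 and 7.86 on non-deprived arrays 1 to 3 and at 8.48, 9.72 and 8.83 on deprived arrays 1 to 3, one of the 5 lowest p-values among members higher in the deprived arrays (unadjusted p = 0.0835, adjusted p = 0.856 in limma). Its lowest value, on non-deprived array 2, was more than 2 below the next, and the difference of 1.62 ± 0.79 (SE) was 0.77 without that array. Non-deprived array 3 also lay below all deprived values, and without both arrays the Slc6a6 difference was 0.395. Slc6a8, the creatine transporter, had the widest span of all members, 5.74 to 10.09. Deprived array 1 was the highest and non-deprived array 3 the lowest, and the difference of 1.57 had an interval of -0.56 to 3.7002. Without non-deprived arrays 2 and 3 the Slc6a8 difference was 0.32. Slc6a15, a neutral amino acid transporter of neurons, differed by 0.25, and Slc6a7, the brain proline transporter, by 0.28.

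The epithelial amino acid carriers of the family had small differences. Slc6a14 was at 3.01, 3.21 and 3.203 on non-deprived arrays 1 to 3 and at 2.61, 2.72 and 2.94 on deprived arrays 1 to 3, so that the deprived arrays were lower without overlap (difference -0.39 ± 0.14, SE; unadjusted p = 0.0303, adjusted p = 0.856 in limma). Its mean level lay below the 25th percentile of all genes, where values have no known floor. Slc6a20a was lower in the deprived arrays without overlap as well (-0.27), and Slc6a19 higher without overlap by 0.13. Slc6a18 and Slc6a20b differed by -0.13 and 0.18.

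Among the chloride cotransporters of family 12, 8 members were measured, 4 with a difference above 0, 4 below and 0 past the threshold (median -0.015). Slc12a5, the potassium-chloride exporter KCC2 that lowers chloride in mature neurons (transcript cluster 6883127), was at 9.52, 5.85 and 7.04 on non-deprived arrays 1 to 3 and at 9.08, 8.84 and 9.17 on deprived arrays 1 to 3. The deprived values lay close together (SD 0.17), whereas the non-deprived values were spread out (SD 1.87), with array 1 above and arrays 2 and 3 below every deprived value. The mean difference of 1.56 ± 0.89 (SE, interval -0.57 to 3.699, adjusted p = 0.856 in limma) ranged over 0.76 to 2.59 as single arrays were dropped. It turned to -0.48 against non-deprived array 1 alone. Slc12a2, the importer NKCC1 that raises chloride in immature neurons, was at 6.76, 7.18 and 7.12 on non-deprived arrays 1 to 3 and at 7.07, 7.52 and 6.26 on deprived arrays 1 to 3. Its groups overlapped, with deprived array 3 the lowest and deprived array 2 the highest. Its difference was -0.069 (-1.06 to 0.92), and it did not share the low values of Slc12a5 on non-deprived arrays 2 and 3. The sign of the Slc12a2 difference turned without those arrays, to 0.19.

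Slc12a5 has several transcription starts, which the single array value does not separate. The 250 bases before 2 of its start sites in RefSeq (assembly GRCm38.p6, plus strand) are shown because this gene had the widest split inside one group among the chloride carriers, and the letters of 4 motifs were looked for on both strands. Capitals mark matches to TGACTCA (AP-1, a site of activity-regulated factors), CACGTG (E-box), TGACGTCA (CRE) or GGGCGG (GC box). None of these motifs overlaps another in these windows.
Slc12a5 start 1, chr2:164960596-164960845: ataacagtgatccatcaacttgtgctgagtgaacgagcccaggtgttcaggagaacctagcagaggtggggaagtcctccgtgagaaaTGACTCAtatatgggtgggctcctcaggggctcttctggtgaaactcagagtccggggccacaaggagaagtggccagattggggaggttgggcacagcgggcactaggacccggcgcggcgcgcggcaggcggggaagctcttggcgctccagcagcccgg
Slc12a5 start 2, chr2:164967738-164967987: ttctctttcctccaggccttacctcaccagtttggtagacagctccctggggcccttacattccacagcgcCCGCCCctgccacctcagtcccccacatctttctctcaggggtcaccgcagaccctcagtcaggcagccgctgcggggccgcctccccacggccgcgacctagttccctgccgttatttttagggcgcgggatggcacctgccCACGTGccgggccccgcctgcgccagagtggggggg
The upstream start has an AP-1 match and the downstream start a GC box and an E-box. Of 32851 RefSeq windows of this length, 4.46% held TGACTCA, 6.02% CACGTG, 1.55% TGACGTCA and 32.7% GGGCGG. A match is a string of letters, and no binding was measured in these samples.

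The remaining cotransporters varied little. Slc12a7 (KCC4) was at 5.28, 5.51 and 5.23 on non-deprived arrays 1 to 3 and at 5.01, 5.07 and 5.05 on deprived arrays 1 to 3, lower in the deprived arrays without overlap (-0.301 ± 0.16, SE; unadjusted p = 0.102, adjusted p = 0.856 in limma). Slc12a4, the widely expressed KCC1, differed by -0.045 with an interval of -0.55 to 0.46. The renal carriers Slc12a1 (NKCC2) and Slc12a3 (NCC) differed by -0.16 and 0.016, Slc12a1 without overlap at a level below the 25th percentile. Slc12a8 and Slc12a9, distant members of the family, differed by 0.015 and 0.24, the latter without overlap.

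Kinases and channels that act with these carriers were measured at 5 of 8 listed genes, all 5 with a difference above 0 and 0 past the threshold. Oxsr1, the kinase OSR1 that phosphorylates NKCC1 and the potassium-chloride cotransporters, was at 6.77, 5.54 and 6.11 on non-deprived arrays 1 to 3 and at 8.06, 8.46 and 6.26 on deprived arrays 1 to 3. Its difference was 1.45 ± 0.65 (SE; adjusted p = 0.856 in limma), and deprived array 3 lay among the non-deprived values. Stk39, the related kinase SPAK, differed by 0.68 and by -0.56 without non-deprived arrays 2 and 3, and Wnk2, which acts upstream of both kinases, by 0.301 and by -0.11 without them. The chloride channel genes Clcn2 and Clcn3 were higher in the deprived arrays without overlap, by 0.91 and 0.64, as were 6.3% of all genes. Both missed the threshold as well (adjusted p = 0.856 for both in limma). Without non-deprived arrays 2 and 3, Oxsr1, Clcn2 and Clcn3 differed by 0.82, 0.71 and 0.175.

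**Figure D4:**
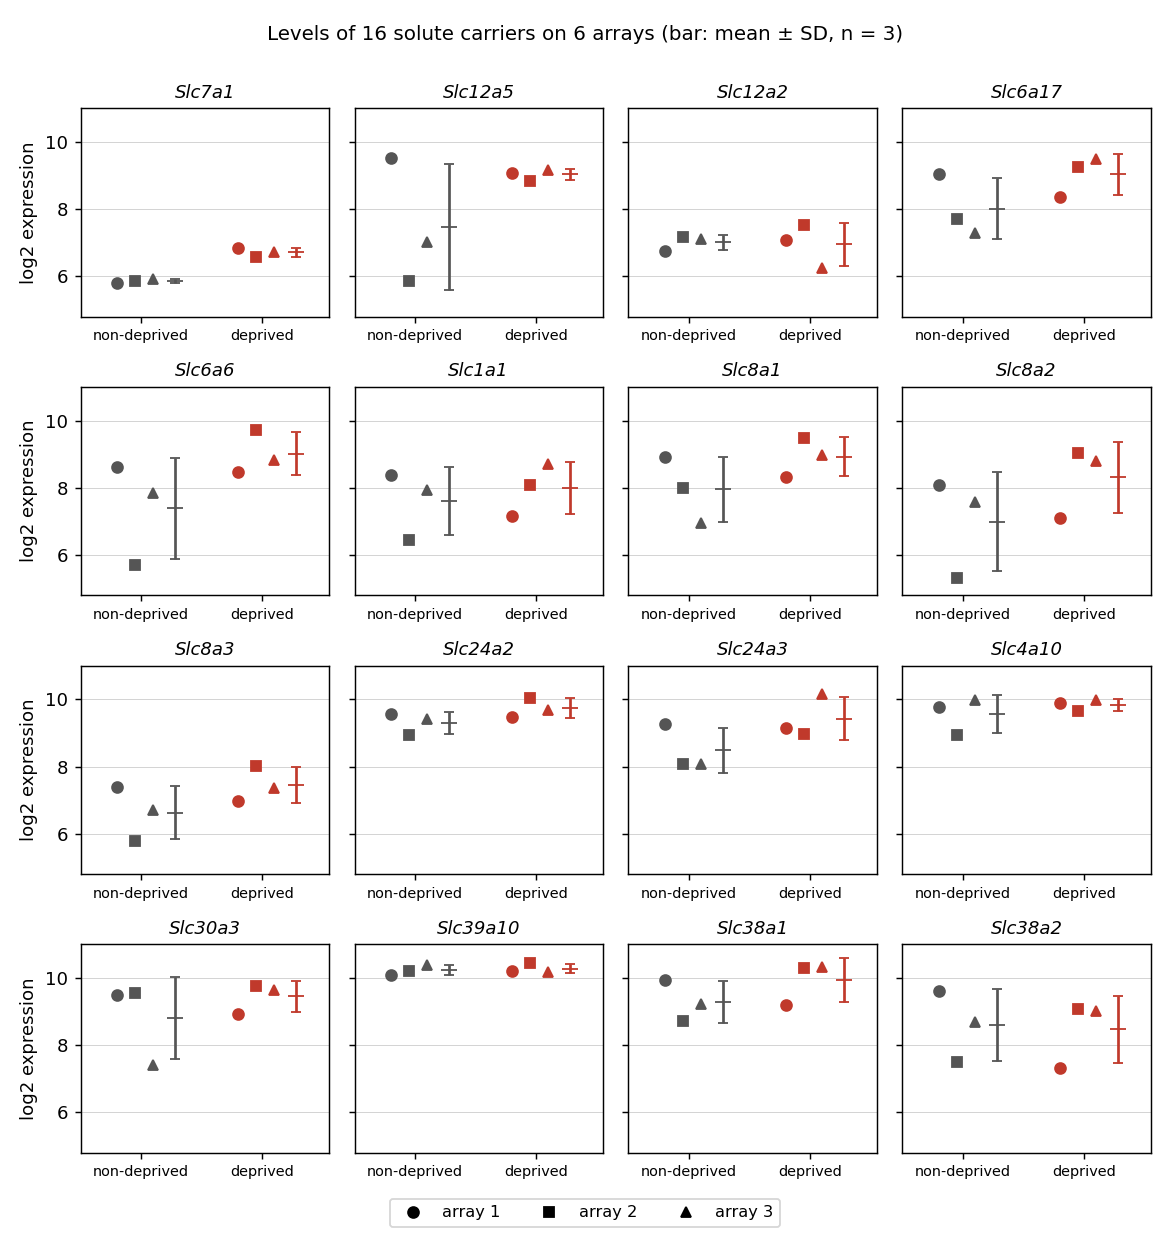
Log2 expression of 16 members on each array, non-deprived in grey and deprived in red, with a marker shape for each array number and the mean ± SD of 3 arrays beside the points. Slc12a5 spreads from 5.85 to 9.52 in the non-deprived group and from 8.84 to 9.17 in the deprived group, whereas Slc39a10 stays between 10.099 and 10.44 on all arrays.

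Sodium-calcium exchangers were measured at 8 members, 3 of family 8 and 5 of the potassium-dependent family 24. Of these, 7 had a difference above 0 and 0 passed the threshold (median 0.76, and 0.18 without non-deprived arrays 2 and 3). Slc8a1, the exchanger NCX1, was at 8.91, 8 and 6.96 on non-deprived arrays 1 to 3 and at 8.33, 9.48 and 8.99 on deprived arrays 1 to 3. Non-deprived arrays 2 and 3 were the 2 lowest, and array 1 lay among the deprived values. A second cluster of Slc8a1 gave nearly the same difference (0.923, against 0.975), but there the groups did not overlap. It was at 8.21, 8.01 and 7.02 on non-deprived arrays 1 to 3 and at 8.92, 8.62 and 8.46 on deprived arrays 1 to 3. Slc8a2, the brain exchanger NCX2, was at 8.09, 5.33 and 7.57 on non-deprived arrays 1 to 3 and at 7.102, 9.03 and 8.801 on deprived arrays 1 to 3, with non-deprived array 2 far below the rest. Slc8a3 (NCX3) was at 7.39, 5.795 and 6.704 on non-deprived arrays 1 to 3 and at 6.98, 8.02 and 7.36 on deprived arrays 1 to 3, again lowest on that array. The 3 differences were 0.97 ± 0.58, 1.31 ± 0.87 and 0.82 ± 0.52 (SE), and without non-deprived arrays 2 and 3 they were 0.021, 0.22 and 0.066. For Slc8a1 these values are of the first cluster only. In its second cluster, non-deprived array 1 (8.21) lay below all deprived values (8.46 to 8.92), so the 2 clusters differ on this point.

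Slc24a2, the neuronal exchanger NCKX2, was at 9.55, 8.94 and 9.42 on non-deprived arrays 1 to 3 and at 9.47, 10.05 and 9.69 on deprived arrays 1 to 3. The groups overlapped and the span of 1.12 was narrow beside that of the family 8 genes (2.23 to 3.70). Its difference was 0.44 (-0.27 to 1.15). Slc24a3 (NCKX3) was at 9.27, 8.08 and 8.09 on non-deprived arrays 1 to 3 and at 9.14, 8.98 and 10.17 on deprived arrays 1 to 3, with non-deprived arrays 2 and 3 lowest and deprived array 3 highest, and differed by 0.95 ± 0.495 (SE). Without non-deprived arrays 2 and 3 the Slc24a3 difference was 0.16. Slc24a4 (NCKX4) differed by 0.41. Slc24a5, a pigment cell exchanger, was at 5.16, 5.66 and 4.94 on non-deprived arrays 1 to 3 and at 6.48, 5.53 and 5.82 on deprived arrays 1 to 3 and had one of the smaller p-values (difference 0.69 ± 0.32, SE; unadjusted p = 0.0734, adjusted p = 0.856 in limma). Deprived array 2 lay among its non-deprived values. Slc24a1, the exchanger of rod photoreceptors, was at 4.91, 5.13 and 4.97 on non-deprived arrays 1 to 3 and at 4.67, 4.82 and 4.73 on deprived arrays 1 to 3, lower in the deprived arrays without overlap (-0.27 ± 0.14, SE; adjusted p = 0.856).

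Plasma membrane calcium pumps, which expel calcium beside the exchangers, were measured at 3 of 4 genes, all 3 with a difference above 0 and 0 past the threshold. Atp2b4 was at 8.28, 5.104 and 5.13 on non-deprived arrays 1 to 3 and at 8.18, 8.17 and 8.64 on deprived arrays 1 to 3. Non-deprived arrays 2 and 3 lay some 3 below the other 4 arrays, and the difference of 2.16 ± 0.88 (SE, adjusted p = 0.856 in limma) was 0.048 without them. Atp2b2 and Atp2b3 differed by 0.33 and 0.85, and by -0.067 and -0.37 without these arrays. The sodium pump beta subunits Atp1b1, Atp1b2 and Atp1b3, whose pump supplies the sodium gradient, differed by 0.073, 0.19 and -0.61, and Atp1b3 was low on deprived array 2 alone (7.73, against 9.65 to 9.99).

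The bicarbonate carriers of family 4 were measured at 7 members, 4 with a difference above 0, 3 below and 0 past the threshold (median 0.0127). Slc4a10, a sodium-driven bicarbonate transporter of neurons, was at 9.77, 8.94 and 9.98 on non-deprived arrays 1 to 3 and at 9.91, 9.64 and 9.98 on deprived arrays 1 to 3. Array 2 of the non-deprived group was the low one, and the groups overlapped (difference 0.28, interval -0.52 to 1.08). Slc4a3, the anion exchanger AE3 of excitable cells, was at 7.52, 7.395 and 6.71 on non-deprived arrays 1 to 3 and at 7.11, 7.097 and 7.45 on deprived arrays 1 to 3, with a difference of 0.013 (-0.85 to 0.88) whose sign turned after quantile normalization and after median centring. Slc4a4, the electrogenic cotransporter NBCe1, strong in astrocytes, was at 7.38, 5.31 and 4.52 on non-deprived arrays 1 to 3 and at 6.89, 5.75 and 7.12 on deprived arrays 1 to 3. Non-deprived array 1 was the highest of all, and the difference of 0.85 ± 0.77 (SE) turned to -0.79 without arrays 2 and 3 of its group. Slc4a8, a sodium-driven chloride-bicarbonate exchanger, differed by 0.45. The anion exchangers Slc4a1 (band 3 of red cells) and Slc4a2 (AE2) and the related Slc4a9 differed by -0.094, -0.14 and -0.12. The carbonic anhydrase genes, which feed these carriers, were measured at 8 of 8, 5 of them with a difference above 0 and 0 past the threshold (median 0.12). Car4, a membrane-bound form, spanned 6.34 to 9.08 with overlapping groups, and Car7, a neuronal form, only 5.36 to 5.74. Car10, a member that lacks the enzyme's activity, differed by 0.56, and Car2, Car3, Car11, Car12 and Car14 by -0.22 to 0.27. Without non-deprived arrays 2 and 3, Car2 turned to -0.93, Car7 to -0.0033 and the median of the 8 genes to -0.063.

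Sodium-proton exchangers were measured at 4 members of family 9, 3 with a difference above 0 and 0 past the threshold. Slc9a7, an exchanger of the trans-Golgi network, was at 8.57, 5.999 and 6.88 on non-deprived arrays 1 to 3 and at 8.65, 7.97 and 8.504 on deprived arrays 1 to 3. Only non-deprived arrays 2 and 3 were low, and without them the difference went from 1.23 ± 0.68 (SE) to -0.197. Slc9a9, of endosomes, differed by 0.59, and Slc9a8, of the Golgi, by 0.066. Without the same arrays these differences were 0.043 and -0.74. Slc9a4, the exchanger NHE4 of stomach and kidney, was at 3.93, 4.21 and 3.796 on non-deprived arrays 1 to 3 and at 3.61, 3.52 and 3.62 on deprived arrays 1 to 3. The deprived values lay below all non-deprived ones (-0.396 ± 0.14, SE; unadjusted p = 0.0302, adjusted p = 0.856 in limma), at a level below the 25th percentile of all genes. The scaffold proteins Slc9a3r1 and Slc9a3r2, which bind an exchanger of this family and are no carriers, differed by -0.26 and 0.078.

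Zinc exporters of family 30 were measured at 8 members, 4 with a difference above 0, 4 below and 0 past the threshold (median 0.10). Slc30a3, the transporter ZnT3 that loads zinc into the synaptic vesicles of glutamatergic neurons (transcript cluster 6937061), was at 9.49, 9.54 and 7.42 on non-deprived arrays 1 to 3 and at 8.93, 9.77 and 9.65 on deprived arrays 1 to 3. A single array, non-deprived 3, stood about 1.5 below the others, and the difference of 0.63 ± 0.63 (SE) was -0.066 without it. Slc30a1, the plasma membrane exporter ZnT1, was at 6.15, 6.57 and 6.19 on non-deprived arrays 1 to 3 and at 6.95, 6.52 and 6.896 on deprived arrays 1 to 3, with one overlapping pair of arrays and a difference of 0.48 (-0.22 to 1.18). The exporters of the early secretory pathway differed in sign: Slc30a5 and Slc30a6, which form a complex, differed by -0.71 and -0.81, and Slc30a7 by 0.297. Slc30a6 was at 7.43 on non-deprived array 2 and at 4.42 to 5.51 on the other 5, and its difference was 0.013 without that array. Slc30a4 and Slc30a9 differed by 0.73 and -0.14. The islet transporter Slc30a8, known from insulin granules, stayed within 3.78 to 3.997.

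Zinc importers of family 39 numbered 12, 8 with a difference above 0, 4 below and 0 past the threshold (median 0.0775). Slc39a10 (ZIP10) was at 10.099, 10.21 and 10.396 on non-deprived arrays 1 to 3 and at 10.21, 10.44 and 10.18 on deprived arrays 1 to 3. All 6 values lay close together and the groups overlapped, with a difference of 0.041 (-0.42 to 0.502). Slc39a7, which releases zinc from the endoplasmic reticulum, was at 6.56, 5.91 and 5.99 on non-deprived arrays 1 to 3 and at 7.75, 6.42 and 7 on deprived arrays 1 to 3 (difference 0.91 ± 0.42, SE; unadjusted p = 0.0728, adjusted p = 0.856 in limma). Only deprived array 2 fell within its non-deprived range. Slc39a13, a Golgi importer, differed by 0.798, and Slc39a1, a plasma membrane importer, by 0.66. Slc39a1 was lowest on non-deprived array 1 (5.23), and its difference was 1.66 against that array alone. Slc39a14, which also carries iron and manganese, was at 5.88, 5.21 and 4.96 on non-deprived arrays 1 to 3 and at 5.15, 4.27 and 5.01 on deprived arrays 1 to 3, a difference of -0.54 ± 0.33 (SE; adjusted p = 0.856) with overlapping groups. Slc39a6 spanned 5.83 to 7.495 with a difference of -0.040, and Slc39a3, Slc39a4, Slc39a5, Slc39a8, Slc39a11 and Slc39a12 differed by -0.19 to 0.27. Of the zinc-buffering genes, metallothionein Mt2 was at 5.17, 10.22 and 3.02 on non-deprived arrays 1 to 3 and at 8.94, 8.11 and 6.45 on deprived arrays 1 to 3, a spread of over 7 inside the non-deprived group. The related Mt1 differed by 0.44, the brain form Mt3 by -0.14 and their zinc-sensing regulator Mtf1 by 0.77, and 0 of these 4 genes passed. Without non-deprived arrays 2 and 3, Mtf1 turned to -0.72, and Mt1, Mt2 and Mt3 were at 0.92, 2.66 and -0.26.

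Family 38, which carries glutamine and other small neutral amino acids, was measured at 11 members, 7 with a difference above 0, 4 below and 0 past the threshold (median 0.14). Slc38a1, the neuronal glutamine transporter SNAT1, was at 9.95, 8.71 and 9.23 on non-deprived arrays 1 to 3 and at 9.18, 10.301 and 10.31 on deprived arrays 1 to 3. Deprived arrays 2 and 3 were the highest, and deprived array 1 lay among the non-deprived values. The difference was 0.64 ± 0.46 (SE), and -0.021 without non-deprived arrays 2 and 3. Slc38a2 (SNAT2), a carrier that cells raise when amino acids run short, was at 9.62, 7.49 and 8.68 on non-deprived arrays 1 to 3 and at 7.33, 9.08 and 9.03 on deprived arrays 1 to 3. Both groups held a low array, non-deprived 2 and deprived 1, and the difference of -0.12 had an interval of -1.83 to 1.59. Slc38a9, the lysosomal carrier that senses arginine, spanned 4.99 to 8.67, with array 1 of each group far above the other 4 arrays. Its difference of 0.71 (-1.72 to 3.15) had the widest interval of the carriers. Slc38a7, another neuronal glutamine carrier, was at 7.54, 6.14 and 5.82 on the non-deprived and 7.82, 7.68 and 6.99 on the deprived arrays, a difference of 0.997 that went to -0.043 without the 2 arrays. Slc38a3, the glutamine exporter SNAT3 of astrocytes, stayed within 4.86 to 5.29. Slc38a4 differed by -0.42, and Slc38a5, Slc38a6, Slc38a8, Slc38a10 and Slc38a11 by -0.052 to 0.31. Glul, glutamine synthetase, was at 9.69, 7.12 and 9.99 on non-deprived arrays 1 to 3 and at 10.35, 9.49 and 9.82 on deprived arrays 1 to 3, low on non-deprived array 2 alone (difference 0.95).

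Family 7 was measured at 15 carriers, 9 with a difference above 0, 6 below and 0 past the threshold (median 0.20). Slc7a1, the cationic amino acid transporter CAT1 that takes up arginine and lysine (transcript cluster 6943195), had the smallest p of all members. It was at 5.79, 5.86 and 5.93 on non-deprived arrays 1 to 3 and at 6.85, 6.59 and 6.73 on deprived arrays 1 to 3. The groups were tight and did not overlap, with an SD of 0.067 in the non-deprived and 0.13 in the deprived arrays. Its difference of 0.86 ± 0.24 (SE, interval 0.29 to 1.44) had an unadjusted p of 0.00974 and an adjusted p of 0.856 in limma, so it did not pass. It did not rest on non-deprived arrays 2 and 3: the difference was 0.93 without them and 0.798 to 0.93 as single arrays were dropped. After quantile normalization the difference was smaller, 0.58, and after median centring it was 0.76. With quantile normalization, 0 members higher in the deprived arrays had an unadjusted p under 0.05 in limma.

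The 250 bases before 1 of the RefSeq start sites of Slc7a1 (assembly GRCm38.p6, minus strand, the same capitals as above) are shown because this member had the smallest p.
Slc7a1 start 1, chr5:148399905-148400154: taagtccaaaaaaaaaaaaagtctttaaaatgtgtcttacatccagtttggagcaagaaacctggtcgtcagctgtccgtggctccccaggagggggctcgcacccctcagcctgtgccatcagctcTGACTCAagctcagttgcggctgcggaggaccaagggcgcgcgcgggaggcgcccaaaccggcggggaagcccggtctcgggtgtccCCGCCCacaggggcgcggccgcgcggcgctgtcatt
This window holds an AP-1 match and a GC box, and none of the 4 motifs lies in the window of the other listed start. The motifs were chosen after these sequences had been seen.

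The light chains of family 7, which pair with a heavy chain to exchange large amino acids, were less even. Slc7a5 (LAT1), which carries leucine, was at 7.71, 6.67 and 6.27 on non-deprived arrays 1 to 3 and at 7.05, 7.28 and 8.09 on deprived arrays 1 to 3. Non-deprived arrays 2 and 3 were the lowest, and the difference of 0.59 turned to -0.24 without them. Slc7a8 (LAT2) was at 8.17, 5.01 and 5.53 on the non-deprived arrays and at 6.94, 7.69 and 8.29 on the deprived ones, a difference of 1.405 ± 0.87 (SE) that turned to -0.53 in the same way. Slc7a6 differed by 0.32. Their heavy chain Slc3a2 did not share this pattern: it was at 8.57, 8.93 and 8.13 on non-deprived arrays 1 to 3 and at 7.802, 9.03 and 8.51 on deprived arrays 1 to 3 and differed by -0.093 (-1.14 to 0.95), with overlapping groups. Slc3a1, the heavy chain of kidney carriers, differed by -0.13. Slc7a11, the cystine-glutamate exchanger xCT known mainly from astrocytes, was at 3.46, 3.76 and 3.74 on non-deprived arrays 1 to 3 and at 3.59, 3.54 and 3.67 on deprived arrays 1 to 3, with an interval of -0.37 to 0.26 at a level below the 25th percentile.

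Slc7a14, a lysosomal member of the family, was at 6.81, 4.67 and 4.58 on non-deprived arrays 1 to 3 and at 6.13, 6.96 and 6.96 on deprived arrays 1 to 3 (difference 1.33 ± 0.64, SE; unadjusted p = 0.0781, adjusted p = 0.856 in limma). Arrays 2 and 3 of the non-deprived group lay about 2 below array 1, and the difference was -0.12 without them. The cationic carriers Slc7a2 and Slc7a3 differed by -0.075 and 0.23, and Slc7a4 by 0.45 (0.13 without non-deprived arrays 2 and 3). Slc7a10, the exchanger asc-1 that moves D-serine, differed by 0.202. Slc7a7, Slc7a9, Slc7a12, Slc7a13 and Slc7a15 lay below the 25th percentile and differed by -0.25 to 0.079. Of the genes that report on amino acid supply and growth signalling, 4 of 4 had a difference above 0 and 0 passed: the stress factor Atf4, which switches on amino acid carriers, at 0.47, the stress-induced inhibitor Sesn2 at 0.85, the kinase Mtor at 0.65 and its partner Rptor at 0.51. Without non-deprived arrays 2 and 3, Rptor turned to -0.51, and Atf4, Sesn2 and Mtor were at 0.65, 0.48 and 0.19. The 2 genes that match only by name, Slc7a6os and Slc4a1ap, differed by -0.40 and 0.62. Slc7a6os was at 9.01 on non-deprived array 2 and at 6.40 to 7.48 on the others.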

How the data were processed

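RNA from 6 samples was measured, each on 1 array. Per the labels' protocols, the RNA was amplified by T7 in vitro transcription before hybridization, and such amplification can itself add spread between arrays. The authors deposited 1 log2 value per transcript cluster and array; the log2 scale was read from the values (0.584 to 13.6). How background was corrected and probes were summarized and normalized is not given in the sources used here. Array medians over all clusters ran from 5.15 to 5.37, so centring at this level was not complete. The submitters' processing notes name the build mm9.

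Of 23331 clusters, 14995 had 1 gene symbol in the platform annotation, 1019 listed several symbols and stayed unnamed, and 7317 were not listed. For 135 genes with several clusters (1 member, Slc8a1) the one with the highest mean was used. Values were used without further scaling, and no gene was left out as undetected. The groups were compared with limma 3.58.1 in R 4.3.3 (lmFit, eBayes with a variance trend), two-sided, adjusted by Benjamini-Hochberg over 14859 genes at 0.05, with the group as sole term. The fit was tested on simulated data. Members sharing a family do not replicate each other, and lists are described by counts and medians, with no test.

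Values per array are given for 21 listed members; the 5 members with the smallest p in each direction were added. All other members were given a range or a difference, and the values per array of some were added after they were seen. The members and lists were chosen with earlier results of these data known. Promoter sequences are from RefSeq, where 78 of 101 members matched.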

Additional observations from a re-analysis of the deposited data

How the results depend on the processing

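Limma called 0 of 101 members and 0 genes under every alternative run: a replicate block, median centring, quantile normalization, genes at or above the 25th percentile or the median of mean level, the mean over clusters, no variance trend, each array left out, and non-deprived arrays 2 and 3 left out. The smallest adjusted p of a member was 0.19, without non-deprived array 1, where 15 members had an unadjusted p under 0.05 (12 higher, 3 lower), against 12.45% of all genes. The members with a difference above 0 numbered 60 to 69 when each array was left out, and their median difference ran from 0.0878 to 0.211. Over the 55 members at or above the median level the median was 0.454, against 0.12 over all 101, with dim members left out. Over all genes at or above the median level it was 0.227. With the replicate block the smallest adjusted p of a member in limma was 0.862. In this balanced design the block cannot change a difference, so the count of 65 higher members stayed the same by construction. The groups share the numbers 1 to 3, with l or r after them, and the labels do not say that a number marks one animal. Deviations from the group means in same-numbered arrays gave no sign of pairing, which does not exclude it; they correlated at -0.0506, -0.0184 and -0.00334. Leaving out 1 array moved the difference of 91 of 101 members by over 1.5 times.

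The sign turned in 14 members after quantile normalization (Slc1a4 -0.131, Slc1a5 -0.0236, Slc4a3 -0.312, Slc6a2 -0.0374, Slc6a15 -0.00797, Slc7a12 0.0316, Slc9a3r2 -0.233, Slc9a8 -0.177, Slc12a3 -0.184, Slc12a8 -0.148, Slc38a6 -0.0514, Slc38a10 -0.0201, Slc39a4 -0.0241, Slc39a11 -0.0112). It turned in 12 after median centring (Slc1a4 -0.0263, Slc1a5 -0.0923, Slc4a3 -0.0843, Slc6a2 -0.0653, Slc7a9 -0.0183, Slc9a3r2 -0.019, Slc9a8 -0.0313, Slc12a3 -0.081, Slc12a8 -0.082, Slc39a10 -0.0557, Slc39a11 -0.00533, Slc39a12 -0.0337). It turned in 35 without non-deprived arrays 2 and 3 (Slc1a1 -0.393, Slc1a4 -0.681, Slc1a5 -0.005, Slc4a3 -0.298, Slc4a4 -0.794, Slc4a8 -0.0493, Slc4a9 0.00533, Slc6a7 -0.128, Slc6a12 0.223, Slc6a15 -0.458, Slc7a5 -0.238, Slc7a6 -0.727, Slc7a6os 0.498, Slc7a8 -0.53, Slc7a11 0.14, Slc7a12 0.146, Slc7a13 0.148, Slc7a14 -0.121, Slc7a15 0.0773, Slc9a3r1 0.00733, Slc9a7 -0.197, Slc9a8 -0.743, Slc12a2 0.189, Slc12a4 0.188, Slc12a5 -0.483, Slc30a3 -0.041, Slc30a4 -0.177, Slc30a6 0.555, Slc30a7 -0.536, Slc30a9 0.18, Slc38a1 -0.0207, Slc38a7 -0.0433, Slc38a9 -1.19, Slc39a3 -0.0343, Slc39a11 -0.312). In 31 members it turned when 1 array was left out, with these ranges: Slc1a1 -0.174 to 0.803, Slc1a4 -0.214 to 0.446, Slc1a5 -0.258 to 0.262, Slc4a1 -0.184 to 0.0363, Slc4a2 -0.318 to 0.0302, Slc4a3 -0.237 to 0.168, Slc4a9 -0.196 to 0.0208, Slc4a10 -0.0372 to 0.486, Slc6a2 -0.061 to 0.156, Slc6a12 -0.116 to 0.075, Slc6a15 -0.216 to 0.602, Slc7a6os -0.849 to 0.417, Slc7a7 -0.143 to 0.0737, Slc7a12 -0.157 to 0.0935, Slc7a13 -0.258 to 0.129, Slc9a3r2 -0.17 to 0.237, Slc9a8 -0.332 to 0.47, Slc12a2 -0.355 to 0.277, Slc12a3 -0.0238 to 0.0823, Slc12a4 -0.162 to 0.0248, Slc12a8 -0.11 to 0.143, Slc30a3 -0.066 to 0.996, Slc30a6 -1.49 to 0.0132, Slc30a7 -0.215 to 0.713, Slc30a9 -0.479 to 0.131, Slc38a2 -0.67 to 0.459, Slc38a9 -0.0755 to 1.66, Slc39a6 -0.477 to 0.356, Slc39a10 -0.0392 to 0.122, Slc39a11 -0.0665 to 0.293, Slc39a12 -0.0327 to 0.153. All of these members missed the threshold in every fit, and the causes were not tested. Precision was limited by 3 arrays per group.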
